A study of Caenorhabditis elegans with 6 samples.

Results

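A set of 32 genes of the synapse and of neurotransmitter use was compared between C. elegans larvae with a conditionally activated Wnt pathway and control larvae. The genes were listed by name, at a time when earlier results of these data were known. Each is represented on the Affymetrix C. elegans genome array by the probe set that names it alone and had the highest mean over the 6 arrays. They are 32 of 17138 genes that have a probe set of their own. RNA came from whole animals, 3 samples of the hs::ΔNTbar-1 strain and 3 of the hs::control strain, which the methods call biological replicates. The question put to the arrays was which genes respond within a short recovery period after a pulse of activated beta-catenin.

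hs::ΔNTbar-1 animals carry an integrated array, huIs7, in which the hsp16.2 heat shock promoter drives a Myc-tagged beta-catenin BAR-1 without its amino terminus. hs::control animals carry the integrated array deIs14 with the empty heat shock vector, made in a dpy-20(e1282) background. Both arrays also hold a mec-7::GFP marker, which labels touch receptor neurons, and dpy-20(+). Animals were synchronized, grown to the L2/L3 molt (labeled as L3 larvae), heat-shocked for 30 min and collected after recovery, so that heat shock is shared by all 6 samples. The labels give 30° for the heat shock and the methods a higher temperature. Each condition is 1 strain with its own array, and other fixed differences between the strains cannot be told apart from a response to ΔNTBAR-1. In RNA from whole worms, fewer neurons and less transcript per neuron also cannot be told apart.

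A chemical synapse releases transmitter when calcium enters through voltage-gated channels and triggers the fusion of docked vesicles with the plasma membrane. Fusion is carried out by SNARE proteins under the control of priming and calcium-sensing factors, and the vesicle membrane is then retrieved by endocytosis. Each neuron class of the worm is defined by the enzymes and vesicular transporters of its transmitter: acetylcholine and GABA act at the body wall muscles in locomotion, glutamate is used by many sensory neurons and interneurons, and the monoamines serotonin and dopamine by few cells.

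The deposited signals are linear hybridization intensities that had been scaled per array, with a median over all probe sets of 131.6 to 145.1. They were compared as log2(signal + 16), which understates the change of dim probe sets, with limma and Benjamini-Hochberg adjustment over all 22548 probe sets tested. Pairs of arrays correlated at 0.979 to 0.981 within a group and at 0.973 to 0.976 between groups, across probe sets that are not independent. bar-1, the gene on the transgene, had a signal of 7755, 20991 and 16009 on the hs::ΔNTbar-1 arrays and of 586, 519.5 and 575 on the hs::control arrays, so each array was on the side its label gives. With 3 arrays a group the precision is low, and 0.1 is the smallest p that an exact two-sided permutation test could give for a single gene.

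None of the 32 genes passed limma's test at an adjusted p under 0.05, a threshold that 0.674% of all probe sets passed (0.408% higher and 0.266% lower in hs::ΔNTbar-1 animals). The smallest adjusted p among them was 0.164. With its main probe set, none met the criteria of the study, by which the means differ at least 2-fold, the analysis of variance named in the methods gives p up to 0.05 and 2 of 3 arrays repeat the change. Of all probe sets, 1.25% met them, as applied here to the deposited signals and not to the RMA values named in the methods. The change was taken on the log2 scale given above, which understates that of dim probe sets. Signal was lower in hs::ΔNTbar-1 animals for 23 of the 32 genes and higher for 9, with a median log2 fold change of -0.12 and a range from -0.48 to 0.32. Over all 17138 genes the median was 0.00 and 49.9% were lower. Without adjustment, 4 of the 32 (12.5%) were lower at a limma p of at most 0.05 and 0 were higher, against 6.4% and 7.08% of all probe sets. Of 10181 genes outside the dimmest 40% of probe sets, 815 were lower and 950 higher at that p. The 4 lower genes of the 32 are cha-1, snt-1, unc-25 and syd-2. Their mean signals were 20.9% to 29.5% below those of hs::control animals.

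All 3 hs::ΔNTbar-1 arrays lay below all 3 hs::control arrays for 6 of the 32 genes (18.8%), against 10.1% of all probe sets, and above them for 0, against 10.7%. Dim probe sets are part of these shares, whereas 30 of the 32 genes lie outside the dimmest 40%. Over all genes outside the dimmest 40% of probe sets the shares were 13.9% and 15%. The 6 are the 4 genes above, aex-3 and egl-19. For 20 of the 32 genes the 95% interval of the fold change stayed within 1.5-fold in both directions, and the interval of cat-2 alone reached 2-fold. The plot of fold changes by role sets these intervals side by side.

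**Figure D1:**
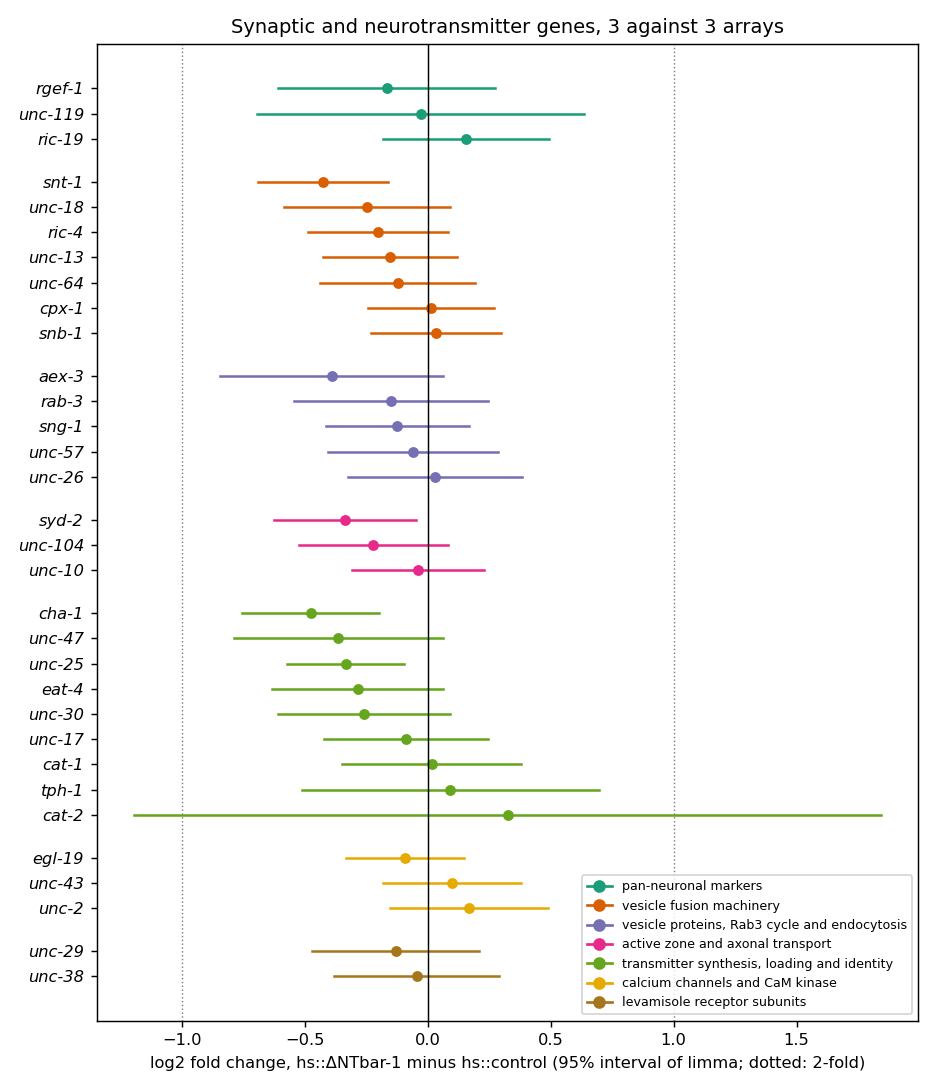
Log2 fold change of hs::ΔNTbar-1 against hs::control animals (x axis) for each of the 32 genes (y axis), grouped and colored by role, with 95% intervals from limma (n = 3 arrays per group). Most points lie left of 0, and the intervals of cha-1, snt-1, unc-25 and syd-2 end below it.

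Among genes that define a transmitter, mean signals of those for acetylcholine, GABA and glutamate were lower in hs::ΔNTbar-1 animals and mean signals of those for the monoamines were higher, by 0.688% for cat-1, 5.1% for tph-1 and 38.9% for cat-2, none past limma's adjusted threshold. cha-1 encodes choline acetyltransferase, the enzyme that makes acetylcholine. Its signal was 225, 195 and 190 on the hs::ΔNTbar-1 arrays and 301, 292 and 273 on the hs::control arrays. The groups did not overlap, and the log2 fold change was -0.48 (standard error 0.12, unadjusted p = 0.00552, adjusted p = 0.164 from limma). When the dimmest 40% of probe sets were left out, its unadjusted p was 0.00215 and its adjusted p 0.0476. unc-17, which encodes the vesicular acetylcholine transporter, lies in the same gene locus as cha-1 and shares a first exon with it. Its signal was 530, 447 and 590 against 546, 593 and 521, so that the groups overlapped and the log2 fold change was -0.09 (interval -0.42 to 0.25). The difference between these neighbors was not tested. The other probe set of cha-1 gave 158, 186.3 and 166 against 167, 183 and 177 (log2 fold change -0.05), which overlapped, and both other probe sets of unc-17 were at -0.07 and -0.13. The lower signal of cha-1 was thus seen with 1 of its 2 probe sets, and both sets are of a type that can bind several transcripts.

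The main probe sets of the 3 GABA genes were all below 0. unc-25 encodes glutamic acid decarboxylase, which makes GABA, and its signal was 1142, 1108 and 1091 on the hs::ΔNTbar-1 arrays and 1435, 1372 and 1417 on the hs::control arrays. These were the tightest groups of the 32 genes in relation to their distance, with means of 1113 ± 26.1 and 1408 ± 32.6 (SD, n = 3 arrays), and the analysis of variance named in the methods gave the smallest unadjusted p of the 32 genes. limma, which draws the variance toward that of all probe sets, gave a log2 fold change of -0.33 (standard error 0.10, unadjusted p = 0.0135, adjusted p = 0.228). unc-47, the vesicular GABA transporter gene, was at 330, 278 and 272 against 376, 311 and 470. Its groups overlapped, since 1 hs::control array lay below the highest hs::ΔNTbar-1 array (log2 fold change -0.36, standard error 0.18, adjusted p = 0.443). unc-30 encodes the homeodomain protein that turns on unc-25 and unc-47 in the D-type motor neurons, and its signal of 135, 147 and 178 against 210, 176 and 173 also overlapped (log2 fold change -0.26, standard error 0.14, adjusted p = 0.499). A dimmer probe set of unc-30 was on the other side, at 0.46 (standard error 0.28). unc-46, outside the 32 genes, encodes a protein needed to place the GABA transporter on vesicles. It was at 243, 219 and 247 against 313, 309 and 378, with no overlap and a log2 fold change of -0.46 (standard error 0.13, unadjusted p = 0.00963, adjusted p = 0.202). unc-46 was chosen after its value was seen and was the lowest of 11 other GABA genes, of which 4 were above 0.

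eat-4, the vesicular glutamate transporter gene, was at 187, 154 and 195 against 193, 225 and 245, so that a single hs::control array fell among the hs::ΔNTbar-1 arrays (log2 fold change -0.28, standard error 0.14, adjusted p = 0.46). Its second probe set did not overlap and was at -0.18. cat-1 encodes the vesicular monoamine transporter, and its signal was 189, 192 and 161 against 150.3, 179.8 and 208. The hs::ΔNTbar-1 arrays fell within the range of the hs::control arrays (log2 fold change 0.02, interval -0.35 to 0.38). tph-1, which encodes tryptophan hydroxylase for serotonin, was at 150, 192 and 132 against 99, 164 and 188. The groups overlapped (log2 fold change 0.09, interval -0.51 to 0.70). cat-2, the tyrosine hydroxylase gene of the dopamine neurons, gave 84.1, 102 and 14.7 against 94.5, 22 and 27.9. It varied more between arrays of a group than any other of the 32 genes (standard error 0.63), and its log2 fold change of 0.32 had an interval from -1.19 to 1.84, which sets no useful limit.

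**Figure D2:**
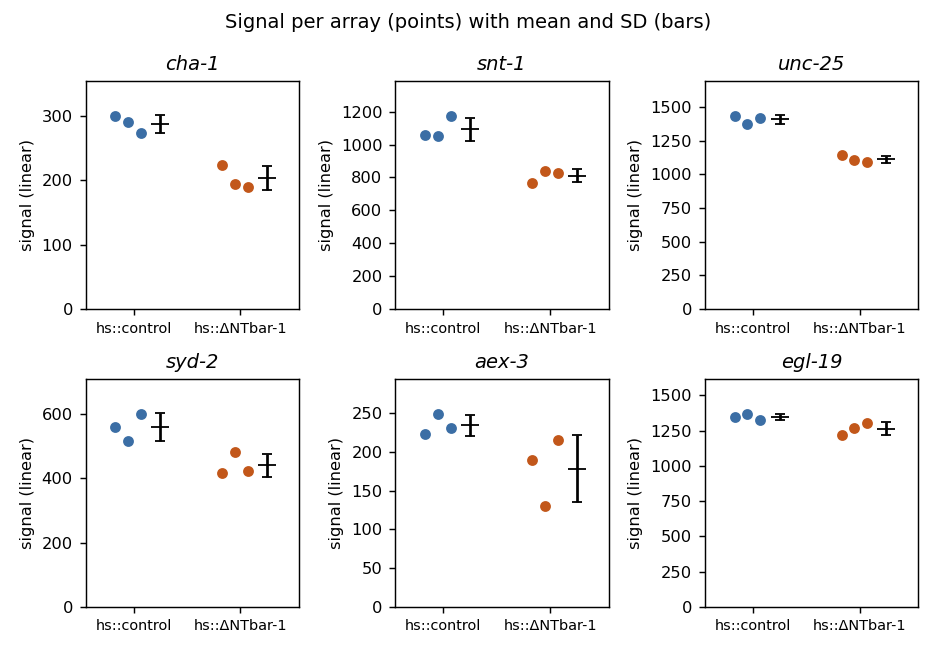
Linear signal on each array (points) with the mean and SD (bars, n = 3 arrays) in hs::control and hs::ΔNTbar-1 animals, for the 6 of 32 genes whose groups did not overlap. In each panel the 3 hs::ΔNTbar-1 arrays sit below the 3 hs::control arrays, by 6.15% in the mean for egl-19 and by 29.5% for cha-1.

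In the vesicle fusion machinery, snt-1 stood furthest from 0. It encodes synaptotagmin, the calcium sensor of vesicle fusion, and its signal was 767, 841 and 825 on the hs::ΔNTbar-1 arrays against 1059, 1049 and 1175 on the hs::control arrays. The groups did not overlap (log2 fold change -0.42, standard error 0.11, unadjusted p = 0.00733, adjusted p = 0.184). With a trended and robust variance in limma its adjusted p was 0.0373. The second snt-1 probe set was at 478, 586 and 622 against 456, 585 and 823, which overlapped (-0.11, standard error 0.23).

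The SNARE genes themselves did not share this distance. snb-1, synaptobrevin of the vesicle membrane, was the brightest of the 32 probe sets and was at 5502, 5019 and 5840 against 5266, 5229 and 5439 (log2 fold change 0.04, interval -0.23 to 0.30). Its second probe set was higher on all 3 hs::ΔNTbar-1 arrays, at 3392, 3448 and 3304 against 2838, 3027 and 2974 (0.20, standard error 0.10, adjusted p = 0.458). unc-64, the syntaxin gene, was at -0.12 (interval -0.44 to 0.19). ric-4, which encodes the SNAP-25 type partner of syntaxin, was at 1658, 1559 and 1869 against 1856, 1954 and 2035, with 1 array of each group crossing (-0.20, standard error 0.12). Its second probe set did not overlap, at 1054, 938 and 975 against 1076, 1177 and 1190 (-0.21, standard error 0.11, adjusted p = 0.47), so that both sets gave nearly the same value.

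Regulators of fusion lay between these. unc-18 encodes the syntaxin-binding protein of the Sec1 family, and its main probe set was at -0.25 (interval -0.59 to 0.09), whereas the other was at 0.14. unc-13, whose product primes vesicles for release, was at -0.15 (interval -0.43 to 0.12), and its 2 other probe sets were at -0.02 and -0.19, the latter without overlap. cpx-1, the complexin gene, gave nearly the same signal in all samples, 340, 330 and 323 against 306, 352 and 326, and its log2 fold change of 0.01 had an interval of -0.24 to 0.27.

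Of the proteins that sit on or recycle the vesicle, aex-3 was the furthest from 0. It encodes the exchange factor that loads the small GTPase RAB-3 with GTP, and its signal was 190, 131 and 215 against 223, 250 and 232. The groups did not overlap, but the hs::ΔNTbar-1 arrays were widely spread, and the log2 fold change of -0.39 had an interval of -0.84 to 0.06 (adjusted p = 0.439). Its second probe set also did not overlap, at 176.2, 165 and 176.4 against 195, 278 and 194 (-0.32, standard error 0.16, adjusted p = 0.459). rab-3 itself was at 1582, 1640 and 2161 against 1746, 2077 and 2108. The highest hs::ΔNTbar-1 array exceeded every hs::control array (log2 fold change -0.15, interval -0.54 to 0.25), and the second rab-3 probe set was at 0.01.

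sng-1, which encodes the vesicle protein synaptogyrin, was at -0.12 (interval -0.41 to 0.17). The endocytosis genes unc-57 (endophilin) and unc-26 (synaptojanin, a lipid phosphatase that uncoats vesicles) were at -0.06 (interval -0.40 to 0.29) and 0.03 (interval -0.32 to 0.38). The probe sets of unc-26 differed. The brightest overlapped fully, at 493, 376 and 423 against 438, 372 and 453, while the dimmest was higher on all 3 hs::ΔNTbar-1 arrays, at 58, 38.6 and 40.5 against 13.6, 28.5 and 19.6 (log2 fold change 0.76, standard error 0.20, unadjusted p = 0.00803, adjusted p = 0.19). The remaining set was at 235, 186 and 304 against 203, 196 and 146, with overlap and a log2 fold change of 0.37 (standard error 0.21). Averaged over its 3 sets, unc-26 was at 0.39 (unadjusted p = 0.0282, adjusted p = 0.302 from limma). All 3 sets are of a type that can bind several transcripts.

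All 3 genes of the active zone and of vesicle transport were below 0. syd-2 encodes liprin-alpha, a scaffold on which active zones form, and was at 417, 481 and 421 against 560.5, 516 and 601. The groups did not overlap (log2 fold change -0.34, standard error 0.12, unadjusted p = 0.0289, adjusted p = 0.304). The second syd-2 probe set was on the other side of 0 and overlapped, at 479, 451 and 388 against 342.5, 444 and 445 (0.10, standard error 0.15). unc-104, the kinesin gene whose motor carries synaptic vesicle precursors along axons, was at 753, 824 and 904 against 938, 1059 and 903. A single pair of arrays crossed by a small margin, and the log2 fold change was -0.22 (interval -0.52 to 0.08), with -0.23 from its other probe set. unc-10, the RIM gene that links RAB-3 vesicles to the active zone, was at -0.04 with its brightest probe set (interval -0.31 to 0.23), at -0.32 with a second that did not overlap (196, 197 and 183 against 234.4, 264 and 234.2; unadjusted p = 0.0233, adjusted p = 0.277) and at 0.42 with a dim one.

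The calcium channel and kinase genes, which muscles also use in part, were close to 0 or above it. egl-19 encodes the L-type channel subunit of muscle and neurons. Its signal was 1218, 1268 and 1305 against 1345, 1371 and 1324, without overlap, but the distance was small (log2 fold change -0.09, standard error 0.10, adjusted p = 0.751), and its second probe set was at 0.11. unc-2, the presynaptic calcium channel subunit gene, was at 660, 663 and 741 against 532, 684.5 and 622 (0.17, interval -0.15 to 0.49). One of its 3 other probe sets gave 2.5, 9.2 and 5.6 against 34.5, 26.8 and 47.3, near the bottom of the scale, with a log2 fold change of -1.25 (standard error 0.19, unadjusted p = 0.000498, adjusted p = 0.0581). It was the 1 probe set of the 63 of these genes that met the study's criteria. The remaining 2 unc-2 sets were at 0.01 and 0.04, so that the probe sets of unc-2 disagree. unc-43, the gene of calcium/calmodulin-dependent kinase II, has 9 probe sets. Its brightest was at 3238, 3273 and 3156 against 2688, 3154 and 3214 (0.10, interval -0.18 to 0.38), and over all 9 the log2 fold change ran from -0.17 to 0.47. The set at 0.47 was higher without overlap, at 131, 127 and 162 against 109, 100 and 80.6 (unadjusted p = 0.0201, adjusted p = 0.263 from limma).

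unc-29 and unc-38 encode subunits of the levamisole-sensitive acetylcholine receptor, which lies on body wall muscle opposite cholinergic motor neurons. unc-29 was at 226, 277 and 217 against 249.4, 247 and 294, and unc-38 at 462, 528 and 558 against 465, 590 and 546. Both overlapped, with log2 fold changes of -0.13 (interval -0.47 to 0.21) and -0.04 (interval -0.38 to 0.29).

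The 3 genes used as markers of all neurons gave no common direction. unc-119 was at 309, 220 and 296 against 357, 182 and 330, with hs::control arrays both above and below all others (log2 fold change -0.03, interval -0.69 to 0.63). rgef-1, a Ras-type exchange factor gene whose promoter is widely used to mark neurons, had the dimmest of the 32 probe sets, at 28.6, 21.3 and 38.8 against 42.8, 30.2 and 31.4 (-0.17, interval -0.61 to 0.28). ric-19, which encodes a protein of dense-core vesicle maturation, was at 377, 397 and 391.5 against 301, 338 and 410 (0.16, interval -0.18 to 0.49).

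**Figure D3:**
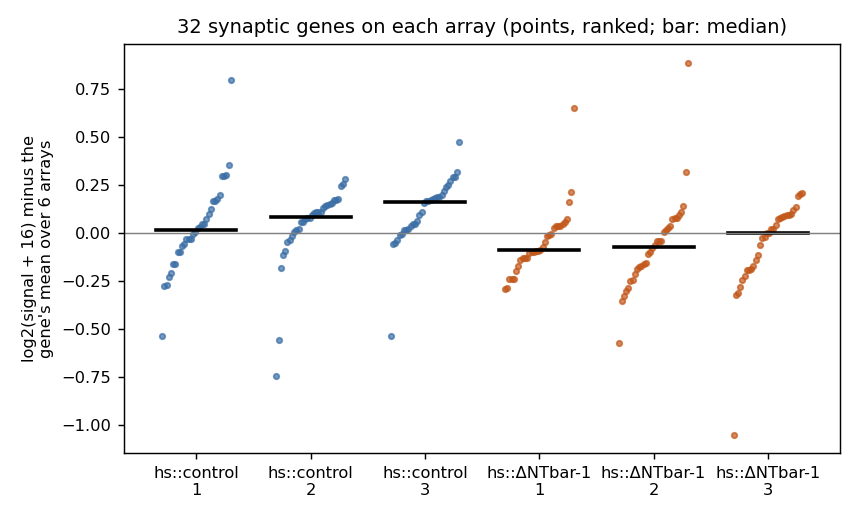
Each point is 1 of the 32 genes on 1 array, as log2(signal + 16) minus that gene's mean over the 6 arrays (y axis), ranked within each array (x axis), with the median as a bar. The medians are -0.09, -0.07 and 0.00 on hs::ΔNTbar-1 arrays 1, 2 and 3 and 0.01, 0.09 and 0.16 on hs::control arrays 1, 2 and 3, without centering of the arrays.

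Read by array, and relative to their own means over the 6 arrays, 10, 12 and 16 of the 32 genes were above on hs::ΔNTbar-1 arrays 1, 2 and 3, and 17, 24 and 26 on hs::control arrays 1, 2 and 3. hs::control array 3 held the highest value of 11 genes and the lowest of 0, whereas hs::ΔNTbar-1 array 1 held the highest of 1 and the lowest of 9. As deposited, the median over the 32 genes was close on hs::ΔNTbar-1 array 3 and hs::control array 1 (0.00 and 0.01). These arrays also differed as a whole, since the same median over all 17138 genes was 0.03 on hs::ΔNTbar-1 array 3 and -0.035 on hs::control array 1. With each array centered on its median over all probe sets, the medians over the 32 genes were -0.05, -0.10 and -0.06 on the hs::ΔNTbar-1 arrays and 0.08, 0.10 and 0.12 on the hs::control arrays, and did not overlap. After that centering 11 of the 32 genes, all lower in hs::ΔNTbar-1 animals, had groups without overlap, against 11.8% of all probe sets. The share among brighter probe sets was not computed after centering. The spread between arrays of a group was ordinary for probe sets of their brightness, with a median SD of 0.153 on the log2 scale over the 32 genes and of 0.16 over all probe sets outside the dimmest 40%.

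The 32 genes have 63 probe sets that name them alone, and 18 of them have more than 1. The 31 other probe sets were on the same side of 0 as the main set in 22 cases and on the other side in 9, and in 8 of the 18 genes the sets differed in sign. None of the 63 passed limma's test. At an unadjusted p of at most 0.05 there were 6 lower and 2 higher sets of the 63, where 6.4% of all probe sets were lower and 7.08% higher.

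**Figure D4:**
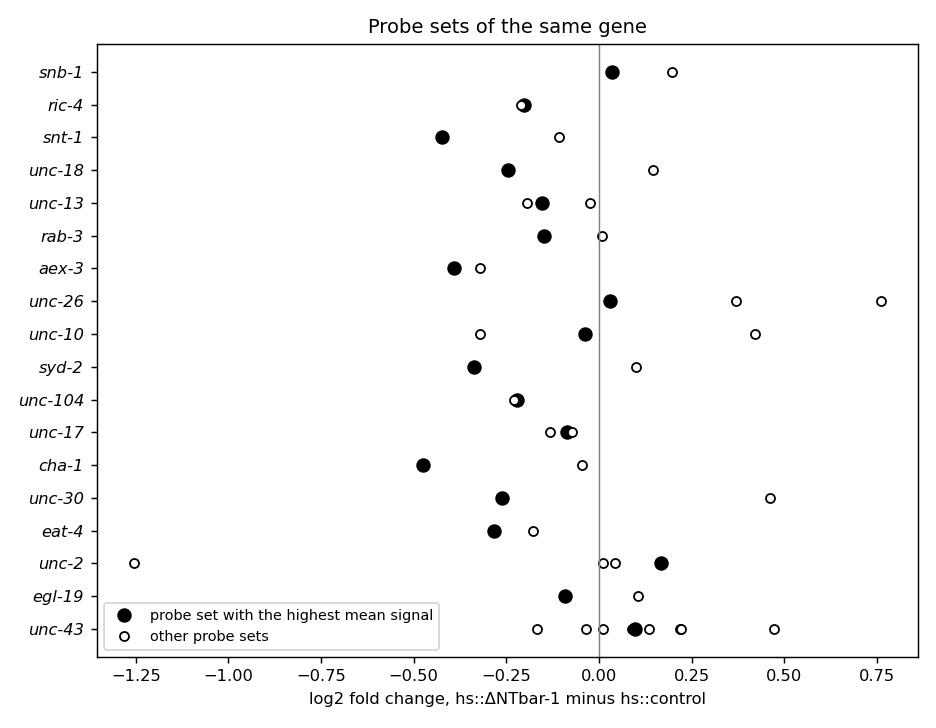
Log2 fold change (x axis) of every probe set of the 18 genes with more than 1 (y axis), filled for the set with the highest mean signal. The sets of ric-4, unc-104, aex-3 and unc-17 lie close together, and those of unc-2, unc-26, unc-10 and unc-30 lie far apart.

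Other genes of synaptic transmission were described with 10 lists of 216 genes, of which 200 had a probe set of their own. None passed limma's test, and none met the study's criteria with the change taken on log2(signal + 16). unc-31, a dim set, had a ratio of linear means of 2.41 (30.6 against 12.7) but a log2 fold change of 0.72 on that scale. The median log2 fold change of the 200 genes was -0.03. At an unadjusted p of at most 0.05, 14 were lower (7%) and 6 higher (3%), against 6.4% and 7.08% of all probe sets. The groups did not overlap for 31 lower genes (15.5%) and for 13 higher genes (6.5%), against 10.1% and 10.7% of all probe sets. Of the 200 genes, 173 lie outside the dimmest 40% of probe sets. Over all genes outside that 40%, 13.9% were lower without overlap and 15% higher. Of these 10181 genes, 815 were lower and 950 higher at an unadjusted p of at most 0.05.

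Those with the largest distance in each direction came from several transmitters. glc-2, which encodes a subunit of glutamate-gated chloride channels, was at 269, 225 and 295 against 414, 467 and 471 (log2 fold change -0.75, standard error 0.14, adjusted p = 0.089). The potassium channel gene egl-2 was at -0.64 (adjusted p = 0.295) and snf-3, a transporter gene of the sodium-coupled family, at -0.62 (adjusted p = 0.299). On the higher side, cat-4, whose enzyme, GTP cyclohydrolase, makes the cofactor for serotonin and dopamine synthesis, was at 1151, 1506 and 1266 against 734, 676 and 633. Its groups were well apart (0.92, standard error 0.14, unadjusted p = 0.000487, adjusted p = 0.0581), while tph-1 and cat-2, whose enzymes use that cofactor, overlapped as given above. glt-3, a glutamate uptake transporter gene, was at 598, 568 and 537 against 317, 395.5 and 295 (0.74, standard error 0.14, adjusted p = 0.0991). itsn-1, the intersectin gene of endocytosis, had the largest value of these lists but was spread from 29.7 to 177 within hs::ΔNTbar-1 animals (0.97, standard error 0.56, adjusted p = 0.517).

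By list, the 11 measured GABA genes had a median log2 fold change of -0.13, with 4 lower genes without overlap (36.4%) and 0 higher. Of these 11, 7 were below 0 and 4 above it. Over all genes outside the dimmest 40% of probe sets, 13.9% were lower without overlap and 15% higher. The 28 acetylcholine receptor and assembly genes were at -0.02 in the median. Of these 28, 4 were lower without overlap (14.3%), close to the share over all such genes, and 1 was higher (3.57%). Among the 4 lower genes were lev-10, which clusters levamisole receptors, at 1921, 1933 and 2011 against 2538, 2411 and 2491 (-0.34, standard error 0.10, adjusted p = 0.224), and ric-3, a chaperone gene of acetylcholine receptors, at 277, 247 and 274 against 364, 342 and 345 (-0.38, standard error 0.11, adjusted p = 0.209). Of the 28 acetylcholine receptor and assembly genes, 18 were below 0 and 10 above it. The 1 higher gene without overlap was molo-1, at 151, 145 and 162 against 123, 110 and 128 (0.31, standard error 0.11, adjusted p = 0.311 from limma). acr-3 was at 0.42 with overlap (standard error 0.20, adjusted p = 0.438 from limma). The 24 glutamate receptor genes were at -0.01, the 21 monoamine genes at 0.02, and the 28 other vesicle cycle genes at 0.06. The 27 ion channel genes, the 12 axonal transport genes and the 5 genes of acetylcholine transport and breakdown were all at -0.11, the 24 genes of G protein control of release at -0.06, and the 20 of adhesion and synapse assembly at -0.04.

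**Figure D5:**
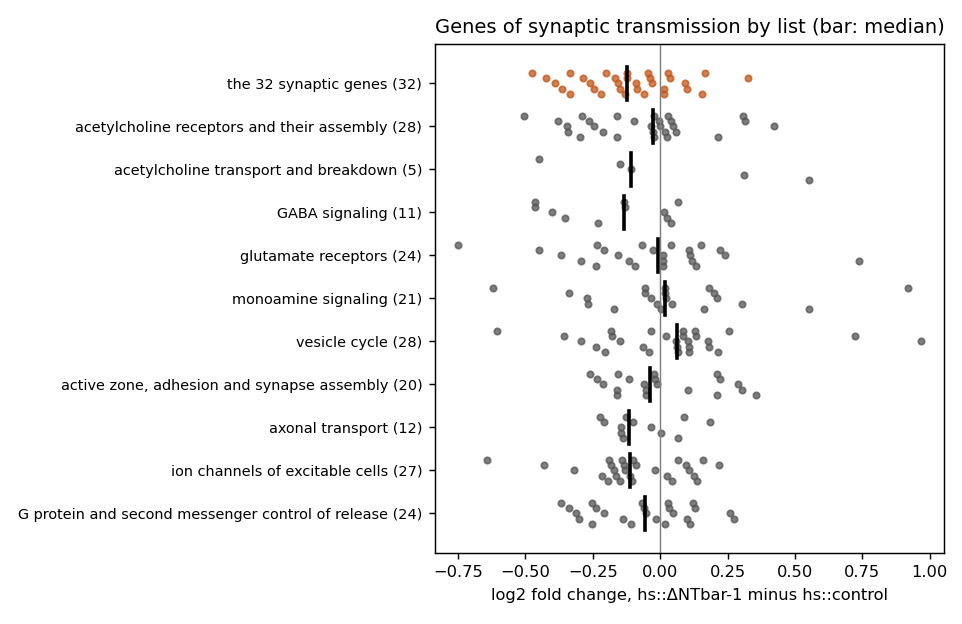
Log2 fold change (x axis) of the 32 genes and of the 200 measured genes of 10 other lists of synaptic transmission (y axis, number of genes in brackets), 1 point per gene, with the median as a bar. The median of the 32 genes is -0.12 and those of the other lists lie between -0.13 and 0.06.

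Markers of other cells were measured beside these genes. Their part in the values above was not tested. The summed signal of 10 pharynx markers was 23156 to 25150 on the hs::ΔNTbar-1 arrays and 29603 to 31173 on the hs::control arrays, 9 of the 10 were lower, and 5 did not overlap. Over all genes outside the dimmest 40% of probe sets, 13.9% were lower without overlap. The 8 touch neuron markers, 6 of them lower, summed to 3673 to 3953 against 5117 to 5762, with mec-7 and mec-17 below without overlap. The sum rests mainly on these genes, with mec-7 at a mean of 1415 against 2308 (log2 fold change -0.68). mec-4, mec-12 and mec-18 were at -0.20, -0.21 and -0.20 with overlap, and mec-2, mec-3 and mec-10 at 0.04, 0.04 and -0.04. Both transgenes hold mec-7::GFP, and its part in the mec-7 signal was not tested. mec-17, the gene of a tubulin acetyltransferase, was at 633, 650 and 654 against 1125, 1060 and 1029 and was the only marker that fell in limma's test (log2 fold change -0.72, standard error 0.10, adjusted p = 0.0488). The 17 markers of ciliated sensory neurons summed to 2086 to 2442 against 2196 to 2785, so that the sums overlapped. Of these, 12 were lower, with 1 lower and 1 higher without overlap. The 13 of body wall muscle summed to 143633 to 156834 against 148364 to 156726, which also overlapped. Of the 13, 9 were lower, with 4 lower (30.8%) and 1 higher (7.69%) without overlap. The 11 intestine markers summed to 69343 to 77223 against 78537 to 79929, without overlap and with 9 of the 11 lower. The 12 germ line markers, 10 of them higher, summed to 4407 to 4886 against 4056 to 4578, the 9 of hypodermis to 49546 to 55183 against 43232 to 50895, and the 7 of glia to 5178 to 6102 against 5175 to 5570. No marker of these lists was at 0, and the lowest value of one on any array was 1.3.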

How the data were processed

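The authors deposited 1 table of linear signal intensity for 22625 probe sets of 6 arrays. The methods name MAS 5 for detection calls and RMA in Partek, and the processing notes of the submitters list MAS5 and Partek, with versions not given in the sources used here. The deposited intensities had been scaled to a trimmed mean of 500.2 on each array and were read as MAS 5 signal; detection calls and scanner files were left aside. It holds 0 columns from any other sample, and at most 0.297% of values were identical between arrays.

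The 77 Affymetrix controls were left out. Of 22548 probe sets, 20766 name 1 gene, 887 several and 895 none in the platform annotation, and the gene identifiers of 20701 were found in a RefSeq table of assembly WBcel235. limma 3.58.1 (lmFit, eBayes; R 4.3.3) was fitted to log2(signal + 16) over all 6 arrays, two-sided, without the replicate number. On simulated arrays 68 of 100 probe sets changed 2-fold and 97 of 100 changed 4-fold were found among 22548, with 10 false calls. The changed probe sets were drawn only from those above the median mean log2 value. Changes smaller than 2-fold were not simulated. The methods' analysis of variance and the study's criteria were applied to these values, whereas the study used RMA values.

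The members, the lists and the tests were chosen with earlier results of these data known. All 32 genes are named. Of other lists, genes that passed a test and the largest changes in each direction are named. Also named are unc-31, unc-46, lev-10, ric-3, molo-1 and acr-3, which were chosen after their values were seen. Replicate numbers were not used as pairs in the main fit. Deviations of arrays with the same number correlated at 0.066, -0.021 and 0.065, and those of arrays with different numbers at -0.091 to 0.026. Median signal rose with the number in both groups, from 134.1 to 145.1 in hs::ΔNTbar-1 and from 131.6 to 143 in hs::control animals. These values do not settle whether samples were paired. Alternatives were other normalizations, pseudocounts, filters and variance models, the replicate block, all probe sets of a gene and leaving out each array. Promoter and protein sequences were not used here.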

Additional observations from a re-analysis of the deposited data

How the results depend on the processing

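The count of 0 called genes among the 32 became 1 without the dimmest 40% of probe sets (cha-1, adjusted p = 0.0476 from limma) and 1 with a trended and robust variance (snt-1, adjusted p = 0.0373), was 4 at an unadjusted p of at most 0.05, and stayed 0 in the other settings run, the methods' test after Benjamini-Hochberg adjustment and the replicate block included. unc-25 was not called in any, with adjusted p from 0.0566 to 0.42. The count of wider synaptic genes called went from 0 to 3 with a pseudocount of 64 and to 3 without dim probe sets (glc-2, glt-3 and cat-4 in both), and to 5 with a trended and robust variance, which adds lev-10 and gpb-1. These are 1.5%, 1.73% and 2.5% of the wider genes in the fit, beside 1.73%, 4.69% and 3.69% of all probe sets, and the 1 of 30 and 1 of 32 members are 3.33% and 3.12%, beside 4.69% and 3.69%. Centring each array on its median gave 11 of 32 genes without overlap, all lower, in place of 6, where 11.8% of all probe sets were lower without overlap. For centred arrays the share among brighter probe sets was not computed. With 1 array left out and no centring, 8 to 13 genes were without overlap, both directions together. Fewer arrays separate more often by construction, and the share over all probe sets was not computed for these settings. Without hs::ΔNTbar-1 replicate 3 there were 12 lower and 1 higher, and without hs::control replicate 3 there were 8 lower and 2 higher. The median log2 fold change of the 32 genes was -0.15 to -0.09 with 1 array left out, -0.15 after centring and -0.08 over all probe sets of each gene.

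The 152 calls over all probe sets became 89 with a pseudocount of 1, 389 with 64, 635 without dim probe sets, 89 without probe sets that can bind several transcripts, 833 with a trended and robust variance, 2 with the replicate block, and 23 to 44 with 1 array left out. For bar-1 the log2 fold change was 4.58 with the replicate block (adjusted p = 0.111) and 4.28 to 4.99 with 1 array left out; its adjusted p passed 0.05 when hs::control replicate 1 (0.052), hs::control replicate 2 (0.0556) or replicate 3 of hs::ΔNTbar-1 (0.0554) was left out. The fit restricted to probe sets without a multiple-transcript suffix dropped the bar-1 set and the main set of 11 of the 32 genes. These were not replaced, although 3 of the 11 have another set without that suffix (unc-10, unc-30 and unc-43).

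Of 499 values of single genes under alternatives, 28 changed sign, none of them a called value. After quantile normalization cpx-1 was at -0.018 and cat-1 at -0.024, and after centring cpx-1 was at -0.017, unc-26 at -0.0005 and cat-1 at -0.014. Averaged over the probe sets of a gene, unc-10 was at 0.020, unc-30 at 0.10, unc-2 at -0.26 and egl-19 at 0.0076, and unc-26 went from 0.03 to 0.39 without a change of sign. With 1 array left out the log2 fold change ranged from -0.32 to 0.14 for unc-119, -0.015 to 0.094 for snb-1, -0.032 to 0.062 for cpx-1, -0.069 to 0.12 for unc-26, -0.16 to 0.045 for unc-57, -0.090 to 0.0020 for unc-10, -0.18 to 0.017 for unc-17, -0.095 to 0.12 for cat-1, -0.038 to 0.93 for cat-2, -0.15 to 0.26 for tph-1 and -0.14 to 0.031 for unc-38. cha-1, snt-1, unc-25 and syd-2 kept their sign in each alternative run.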
